A study of Drosophila melanogaster with 6 samples.

Results

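The genes described are 10 Tudor-domain genes of the Drosophila piRNA pathway: fs(1)Yb, BoYb, SoYb, vret, tud, krimp, tej, qin, spn-E and papi. They were chosen by name out of 13691 genes in all. Each is represented by its brightest RefSeq entry over the 6 arrays, except that for qin the entry listed as CG14303 was used and a brighter one of an older model, CG14306, is given beside it. RNA from Drosophila melanogaster ovaries had been hybridized to Affymetrix tiling arrays, 3 from samples labelled uap56 and 3 from samples labelled vasa. The samples are named for Hel25E, which encodes UAP56, a helicase that acts in splicing and in export of mRNA from the nucleus, and for vas, which encodes the germline DEAD-box helicase Vasa. The labels give the tissue, the cornmeal food, the wet yeast paste fed to the adults and the RNA preparation, which both groups share; they state no allele, strain or age. No group with both genes intact was analysed here. A difference between the groups can therefore come from either side. It is not stated whether replicates are separate animals, and the p-values measure only the spread between these samples, which may be technical.

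piRNAs are small RNAs that guide Argonaute proteins of the PIWI clade to transposon transcripts. In the germline much of their production takes place in nuage, a perinuclear granule where the Argonautes Aubergine and Ago3 amplify piRNAs by cutting transposon and piRNA cluster transcripts in turn, a cycle known as ping-pong. In the somatic cells around the germline, which lack that cycle, precursors are handled in a cytoplasmic granule called the Yb body and matured at the mitochondrial surface. A Tudor domain binds methylated arginine or lysine residues, and many Tudor proteins of the pathway bind methylated arginines near the N-terminus of PIWI-clade proteins, which places them as scaffolds of both granules.

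Between these ovaries the clearest differences lay in BoYb and SoYb, both dimmer on every uap56 array than on any vasa array, by 3.37-fold and 2.18-fold. tej went the other way, 1.79-fold brighter in uap56 with no overlap between the groups, and just missed the threshold. The other 7 genes did not pass, and the values of vret and papi were nearly alike in both groups. With limma's test (intensity trend and robust option, Benjamini-Hochberg adjustment over all genes, threshold 0.05), 2 of the 10 members were past the threshold toward vasa, against a background of 1.35% of all genes, and 0 toward uap56, against 2.48% (3.83% of all genes in either direction). At an unadjusted p under 0.05 there were 4 members, 3 toward vasa and 1 toward uap56, against 18.2% of all genes. With a single variance prior in place of the trend, 0 of the 10 passed and 3 had an unadjusted p under 0.05, where 2 of 13691 genes (0.0146%) passed and 15.3% had such a p. Over the 10 genes the median log2 difference, uap56 minus vasa, was -0.37 and 8 lay below 0, beside a median of 0.02 and 48.6% below 0 over all genes.

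**Figure D1:**
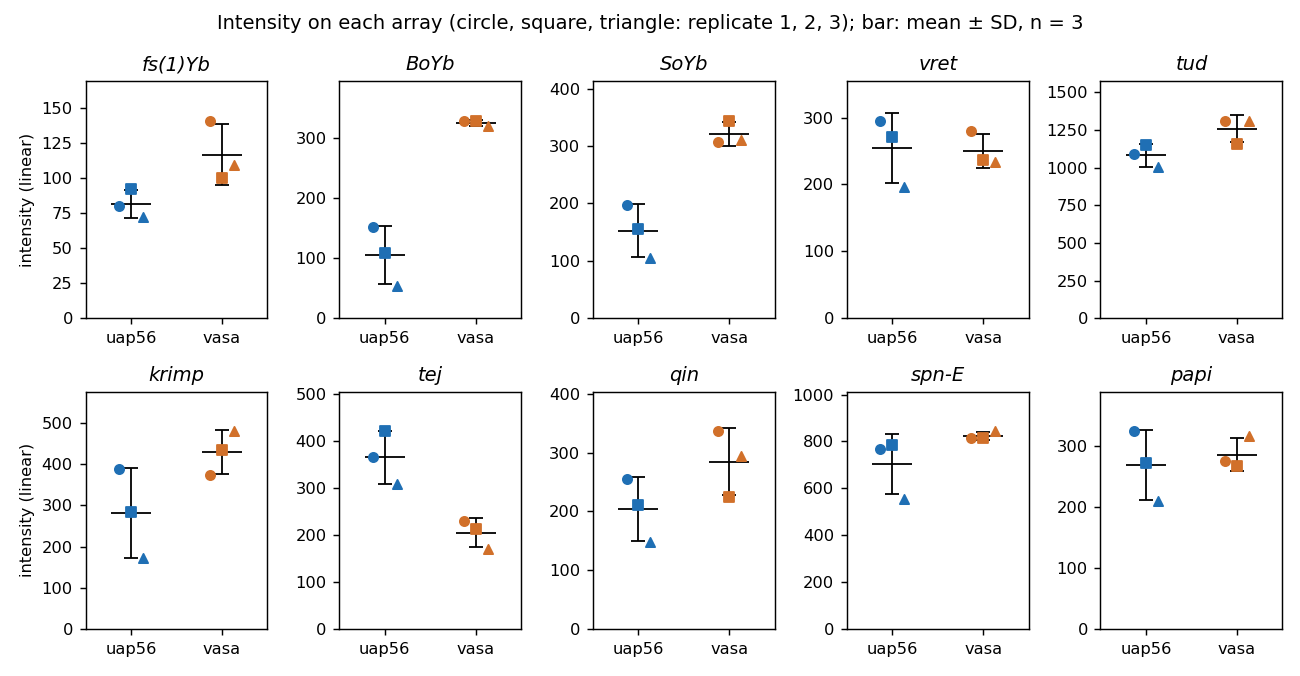
Intensity (linear scale from 0, a separate axis for each gene) of the 10 genes on each of the 6 arrays, with circle, square and triangle for replicates 1, 2 and 3 and bars for the mean ± SD of 3 arrays. BoYb and SoYb were lower on all uap56 arrays than on any vasa array, tej was higher on all of them, and the triangle of uap56 replicate 3 is the lowest uap56 point in every panel.

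As a check of the labels, vas stood at 1698 ± 341 in uap56 and 297 ± 75.1 in vasa (SD, n = 3 each). Its log2 difference was 2.52 (limma adjusted p = 0.00183 with the trend, 0.0856 with the single prior). For Hel25E the means were 1419 ± 326 and 1610.3 ± 192, with a log2 difference of -0.20 (limma adjusted p = 0.642), so the array signal of this gene does not tell the groups apart. Intensities below are in the linear units of the deposited tables, and every difference is a log2 difference of uap56 minus vasa. Intensity depends on the probes of each gene, so levels are not compared between genes.

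The Yb family, in which a Tudor domain is joined to a helicase-like domain, has 3 members in the fly. Yb itself, encoded by fs(1)Yb, builds the Yb body of the somatic ovary and is needed there for piRNAs of the flamenco cluster. BoYb, "Brother of Yb", is a germline protein of nuage, and SoYb, "Sister of Yb", is present in both germline and somatic cells. BoYb read 152, 109 and 54.4 on the uap56 arrays and 327, 329 and 319 on the vasa arrays. The 3 vasa values lay within a narrow band, while the uap56 values ranged widely below it. The means were 105 ± 48.8 in uap56 and 325 ± 5.26 in vasa (SD, n = 3 each). The log2 difference was -1.75 ± 0.34 (SE), with a 95% interval of -2.52 to -0.98 and a limma adjusted p of 0.0286 (0.157 with the single prior; 0.0124 to 0.157 over the alternatives tried).

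SoYb read 197, 155 and 104 on the uap56 arrays and 307, 344 and 311 on the vasa arrays. All 3 vasa values were above all 3 uap56 values, and uap56 replicate 3 was again the lowest. The means were 152 ± 46.3 and 321 ± 20.7 (n = 3 each). The log2 difference was -1.12 ± 0.25 (SE), with a 95% interval of -1.68 to -0.56 and a limma adjusted p of 0.0417 (0.173 with the single prior; 0.0233 to 0.173 over the alternatives). fs(1)Yb read 80.2, 92.2 and 72.0 in uap56 and 141, 99.7 and 109 in vasa. The groups did not overlap, though the highest uap56 array and the lowest vasa array lay close together. Its log2 difference was -0.51, with an interval of -1.11 to 0.09 that includes 0 and a limma adjusted p of 0.366.

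Whether the Yb genes differed from each other in their response was asked with the log2 ratio of 2 genes within an array. The ratio of BoYb to fs(1)Yb averaged 0.25 ± 0.66 in uap56 and 1.49 ± 0.26 in vasa, a difference of -1.24. That of SoYb to fs(1)Yb differed by -0.61 (0.86 ± 0.39 and 1.47 ± 0.33), and that of BoYb to SoYb by -0.63 (-0.61 ± 0.29 and 0.02 ± 0.08). By an exact two-sided permutation test the p was 0.1, 0.2 and 0.1 in turn, and 0.15, 0.2 and 0.15 after adjustment over the 3 pairs. With 3 arrays against 3 the smallest p this test can give is 0.1, so a difference in response among the 3 genes was not shown.

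The calls of BoYb and SoYb did not hold in every fit with 1 array left out. In the 6 limma fits that left out 1 array each, BoYb passed in 2 and SoYb in 1. BoYb was called without uap56 replicate 1 and without uap56 replicate 3 (log2 difference -1.34, adjusted p = 0.0386), and its call was lost without uap56 replicate 2 (adjusted p = 0.0823), vasa replicate 1 (0.0654), vasa replicate 2 (0.0888) or vasa replicate 3 (0.0966). SoYb was called without uap56 replicate 1. Without uap56 replicate 3 its log2 difference was -0.87 (adjusted p = 0.0755), and its call was also lost without uap56 replicate 2 (0.112), vasa replicate 1 (0.0848), vasa replicate 2 (0.147) or vasa replicate 3 (0.137). Both differences stayed below 0 in all 6 fits. Without vasa replicate 1, 2 or 3, that of BoYb was -1.75, -1.74 and -1.77 in turn, against -1.75 with all arrays. That of SoYb was -1.15, -1.07 and -1.14, against -1.12. Where a vasa array was left out, the call was thus lost with little change in the difference.

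**Figure D2:**
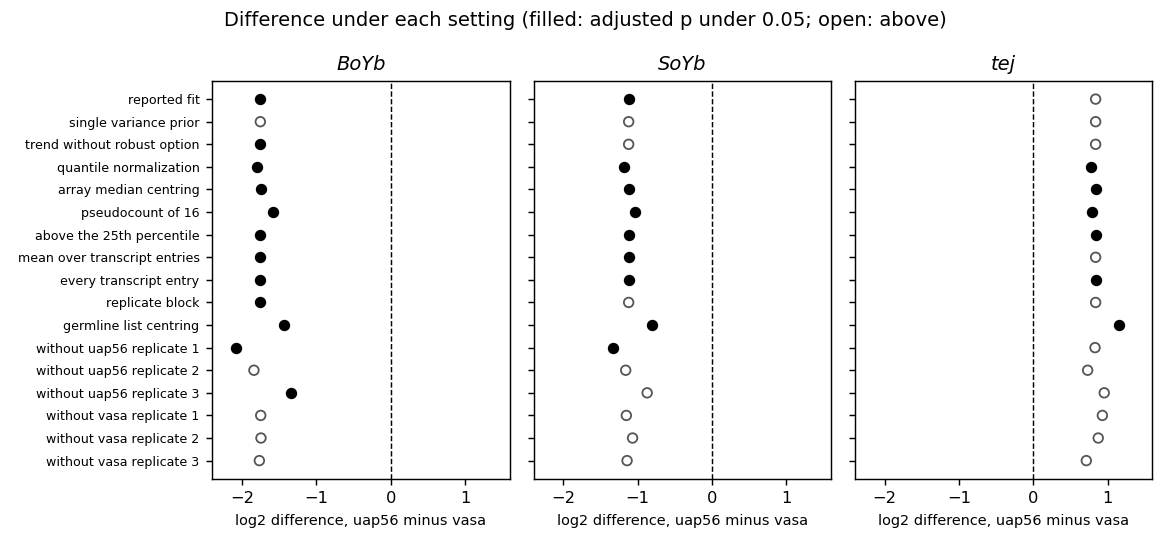
Log2 difference (x axis, uap56 minus vasa) of BoYb, SoYb and tej in the reported fit and under 16 alternative settings (y axis), with filled points for an adjusted p under 0.05 and open points above it. BoYb stays between -2.08 and -1.34, SoYb between -1.33 and -0.81 and tej between 0.71 and 1.15, while the call of each depends on the setting.

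tej encodes Tejas, a protein with a LOTUS and a Tudor domain that binds Vasa and Spindle-E and brings them to nuage. It read 367, 421 and 309 on the uap56 arrays and 231, 213 and 171 on the vasa arrays, so that it was the single member brighter in uap56 without overlap. The means were 366 ± 56.0 and 204.96 ± 30.7 (n = 3 each). The log2 difference was 0.84 ± 0.20 (SE), with a 95% interval of 0.39 to 1.29 and a limma adjusted p of 0.0535 (0.183 with the single prior; 0.0176 to 0.195 over the alternatives). The gene was past the threshold under 6 of 16 alternatives, among them quantile normalization (adjusted p = 0.0358) and a pseudocount of 16 (adjusted p = 0.0489), and in 0 of the 6 fits without 1 array, where it ranged from 0.71 to 0.95.

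spn-E encodes Spindle-E, a DExH-box helicase with a Tudor domain that ping-pong amplification in the germline requires. It read 769, 785 and 555 in uap56 and 815, 814 and 843 in vasa. The vasa arrays were almost alike and all above the uap56 arrays, but replicates 1 and 2 of uap56 came close to them, and the log2 difference of -0.25 (interval -0.62 to 0.13, limma adjusted p = 0.493) was not past the threshold. Without uap56 replicate 3 it was -0.09.

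krimp encodes Krimper, a nuage scaffold that brings Ago3 and Aubergine together. The uap56 arrays read 389, 284 and 172 and the vasa arrays 374, 434 and 479.9, so the groups overlapped through uap56 replicate 1. The log2 difference was -0.68 (interval -1.31 to -0.052), with an unadjusted p of 0.0367 and a limma adjusted p of 0.240. Without uap56 replicate 3 it was -0.36 (adjusted p = 0.419).

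qin, also known as kumo, encodes a protein with RING and Tudor domains that keeps ping-pong between Aubergine and Ago3. Its entry, listed under the older name CG14303, read 254, 210.2 and 147 in uap56 and 336, 224 and 293 in vasa, with overlapping groups. The log2 difference was -0.50 (interval -1.06 to 0.071, limma adjusted p = 0.347). An older gene model now joined to qin, CG14306, has an entry of its own on the arrays and gave -0.33 (limma adjusted p = 0.500). It read 310.5, 238 and 228 in uap56 and 352, 243 and 394 in vasa, and was brighter than the CG14303 entry on every array.

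tud encodes Tudor, the founding member of the domain family, a protein of nuage and of the polar granules of the germ plasm. It read 1089.8, 1153 and 1002 in uap56 and 1312, 1154 and 1312 in vasa. All the vasa values were above the uap56 values, the nearest pair by less than 1 intensity unit, and the log2 difference of -0.22 (interval -0.52 to 0.082) had a limma adjusted p of 0.441.

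vret encodes Vreteno, which acts in both Yb bodies and nuage and which piRNA production by the Piwi branch requires. It read 295, 271 and 195 in uap56 and 279, 237 and 234 in vasa. The groups overlapped, the log2 difference was 0.0065 (limma adjusted p = 0.992), and its interval of -0.47 to 0.48 still allows a change of either sign. papi encodes a protein of the mitochondrial outer membrane with KH and Tudor domains that binds PIWI-clade proteins. It read 325, 272 and 209.5 in uap56 and 275, 267 and 317 in vasa. The log2 difference was -0.11 (interval -0.57 to 0.35, limma adjusted p = 0.837), and it was 0.058 without uap56 replicate 3. papi has 4 RefSeq entries on the arrays, whose log2 differences lay between -0.13 and -0.08.

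**Figure D3:**
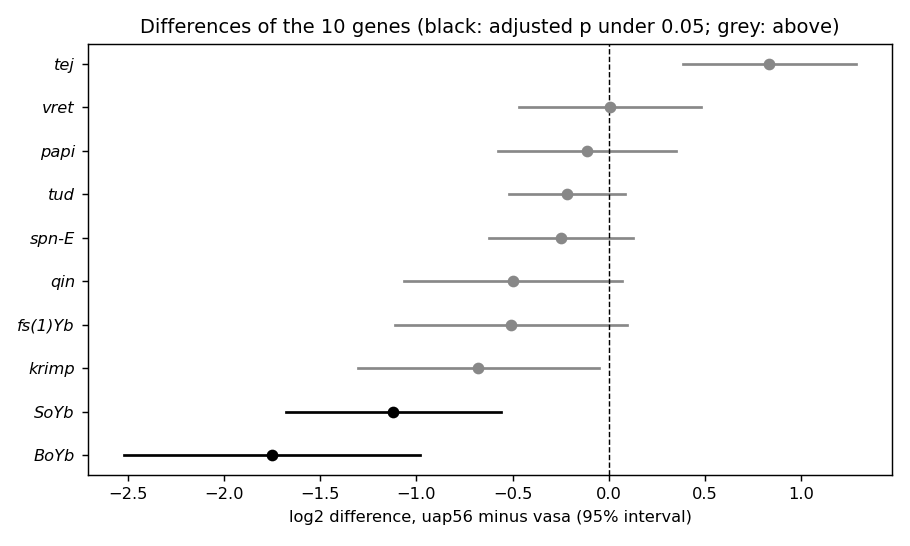
Log2 difference of the 10 genes (x axis, uap56 minus vasa) with the 95% interval of the limma fit, in order of size, with black for an adjusted p under 0.05 and grey above it. The intervals of BoYb, SoYb, krimp and tej exclude 0 before adjustment over all genes, and those of the other 6 include it.

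Without a test, the groups did not overlap for 6 of the 10 genes, against 23.5% of all genes. Of the 6, fs(1)Yb, BoYb, SoYb, tud and spn-E were brighter in vasa and tej in uap56. A high count was not particular to the members. Of the other genes described below, the groups did not overlap for 25 of 49 piRNA pathway genes, vas among them. The count was 6 of 10 for germline markers, 4 of 12 for follicle and escort cell genes and 4 of 17 for genes of late egg chambers. Genes that a filter on low values would remove were not left out of these counts, and none of the 10 members stood at the floor of 1 on any array.

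The 10 genes shared a pattern within the uap56 group. uap56 replicate 3 was the lowest of the 3 uap56 arrays for 10 of 10 members, against 57.6% of the 6687 genes whose mean lay between the dimmest and the brightest member. The median deviation of the members from their group mean on that array was -0.35 on the log2 scale, against -0.14 for those genes. In the vasa group no array was lowest for more than 5 members. The coefficient of variation was larger in uap56 for 8 of the 10 members, against 60.7% of the genes of like intensity. Its median over the members was 21.0% in uap56 and 9.74% in vasa, against 17.6% and 14.4% over those genes. BoYb was the extreme, with 46.5% in uap56 and 1.62% in vasa.

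**Figure D4:**
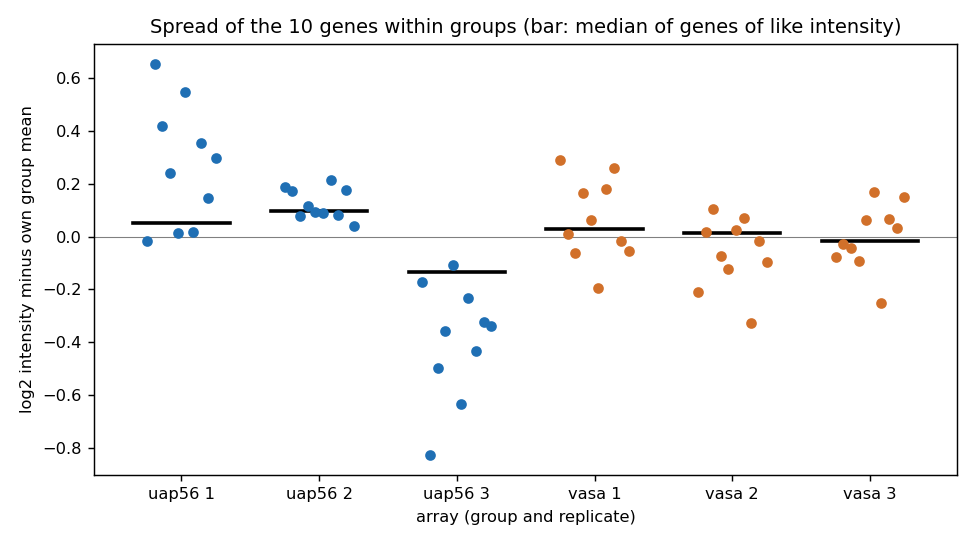
Log2 intensity minus the mean of the gene's own group (y axis) for the 10 genes on each array (x axis, blue for uap56, orange for vasa), with a black bar for the median of genes of like intensity. On uap56 replicate 3 all 10 points lie below 0, where the bar lies at -0.14.

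Other genes of the pathway lay low on that array as well. Over 49 measured genes of 6 pathway lists, uap56 replicate 3 was the lowest uap56 array for 39 (79.6%). The share was 45.6% over all genes and 57.6% over those in the members' intensity range. The median deviation of all genes on that array was -0.08, and the counts below are to be read beside these values. Among markers of other cells, it was the lowest for 8 of 10 germline genes, with a median deviation of -0.28, for 4 of 6 fat body genes (-0.39) and for 8 of 17 genes of late egg chambers (-0.09). It was the lowest for 3 of 12 genes of somatic follicle and escort cells (-0.01), 2 of 7 hemocyte genes (0.02), 1 of 8 testis genes (0.07) and 0 of 9 of the muscle sheath (0.16). In RNA from whole ovaries, fewer cells of a type and less RNA per cell cannot be told apart. The summed intensity of the 10 germline genes ran from 16079 to 19993 on the uap56 arrays and from 18423 to 22996 on the vasa arrays. Of these, nanos was past the threshold toward uap56 (0.69) and ovo toward vasa (-0.74), and the median of the list was -0.42.

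Centring each array on the mean of the germline list, an alternative chosen after the data were seen, moved the median of all genes by 0.32. In that fit the difference of BoYb was -1.44 (adjusted p = 0.0237), that of SoYb -0.81 (adjusted p = 0.0424) and that of tej 1.15 (adjusted p = 0.0176). Relative to the germline list, BoYb and SoYb remained past the threshold toward vasa, and tej came past it on the side of uap56. The list itself holds nanos and ovo, past the threshold in opposite directions. Its mean is therefore no measure of germline content, and the centring does not test cell composition. The same centring turned the sign of tud (0.10), spn-E (0.069) and papi (0.21), none of them past the threshold.

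Markers of other cells were summed on each array in the same way, so the brightest genes weigh most in each sum. Of the 12 follicle and escort cell genes, zfh1, a zinc-finger transcription factor gene, was past the threshold toward vasa (-0.95, limma adjusted p = 0.0377), with a list median of -0.25. The summed intensities of 2635 to 3088 in uap56 and 3105 to 4017 in vasa did not overlap, though the nearest arrays lay close together. The brightest genes in these sums, tj and Fas3, were not past the threshold (limma adjusted p = 0.418 and 0.501). Of 17 genes of late egg chambers, the chorion genes Cp16 (0.91) and Cp15 (0.71) passed toward uap56, the list median was 0.17, and the sums were 165894 to 211912 in uap56 and 146436 to 166715 in vasa. Of 9 muscle sheath, 6 fat body, 7 hemocyte and 8 testis genes, 0 passed in the limma fit or with the single prior. In turn 0, 0, 2 and 1 of these genes had an unadjusted p under 0.05, against 18.2% of all genes. Their medians were 0.11, -0.20, 0.29 and 0.17. A mean intensity below that of the median gene was found for 0, 4, 7 and 6 of them in turn. The fat body, hemocyte and testis values thus rest largely on dim genes, for which a lack of calls says little. The summed muscle genes overlapped between the groups, at 16448 to 23664 in uap56 and 16920 to 21546 in vasa. So did the sums of fat body (461 to 904 and 588 to 1536), hemocyte (418 to 449 and 323 to 487) and testis genes (745 to 1057 and 678 to 838). The largest part of the testis sum came from twe (means of 556 in uap56 and 361 in vasa), the gene of that list with an unadjusted p under 0.05. That sum thus depends largely on twe and was not taken as a measure of testis cells. The part of cell composition in the differences of BoYb, SoYb and tej was not tested.

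In the rest of the pathway, single genes moved in both directions. Over the 49 genes of the 6 lists, 4 passed toward uap56 and 3 toward vasa, against 2.48% and 1.35% of all genes. Among the 4 is vas, the gene that 1 of the groups is named for. The median was -0.30, and with the single prior 0 passed. Over all genes, 18.2% had an unadjusted p under 0.05 in the limma fit. Of the 9 other Tudor-domain genes measured, spoon, which encodes a mitochondrial anchoring protein with KH and Tudor domains, was 1.89-fold brighter on the vasa arrays (1412 ± 141, against 746 ± 86.5 in uap56, log2 difference -0.92, limma adjusted p = 0.0146), and it was the only one of the 9 past the threshold in the limma fit. The list's median was -0.34. Veneno (-0.46), Kots (-0.57) and tapas (-0.32), the last of them a close relative of tej, did not pass.

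Among the 7 partners of the nuage Tudor proteins, vas and squ (0.65, limma adjusted p = 0.0416) passed toward uap56 and 0 toward vasa (4 at an unadjusted p under 0.05), with a median of -0.41. The values of bel (-0.64, adjusted p = 0.0785) and mael (-0.52, adjusted p = 0.0878), and those of the Argonaute genes AGO3 (-0.37) and aub (-0.48), were not past the threshold. For all 7 genes the groups did not overlap (23.5% of all genes), with 5 brighter in vasa and vas and squ in uap56. That count includes vas, the gene that 1 of the groups is named for. Of the 8 genes of piRNA production at Yb bodies and mitochondria, piwi, the nuclear Argonaute, was past the threshold toward vasa (-1.03) and Hen1, the methyltransferase of piRNA ends, toward uap56 (0.88), with a median of -0.23. armi, the helicase that Yb binds in the Yb body, had -0.59 (adjusted p = 0.174) and Gasz, its mitochondrial anchor, -0.41 (adjusted p = 0.462).

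The genes of the arginine methylation complex, which makes the mark that many Tudor domains bind, did not pass in the limma fit. csul, the methyltransferase, had 0.05, its cofactor vls -0.36 and icln -0.26, with 0 of the 3 at an unadjusted p under 0.05 and 0 past the threshold with the single prior. Of 14 genes of piRNA cluster transcription and export, moon (1.56) passed toward uap56 and Boot (-1.73) toward vasa, with a median of -0.32. Nxf3, the export receptor that acts with Boot, had -1.14 (adjusted p = 0.0694) and cuff -1.01 (adjusted p = 0.0792). Of 8 genes of transcriptional silencing, 0 passed in the limma fit or with the single prior and 1, Panx (-0.66), had an unadjusted p under 0.05, and the median was 0.22.

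**Figure D5:**
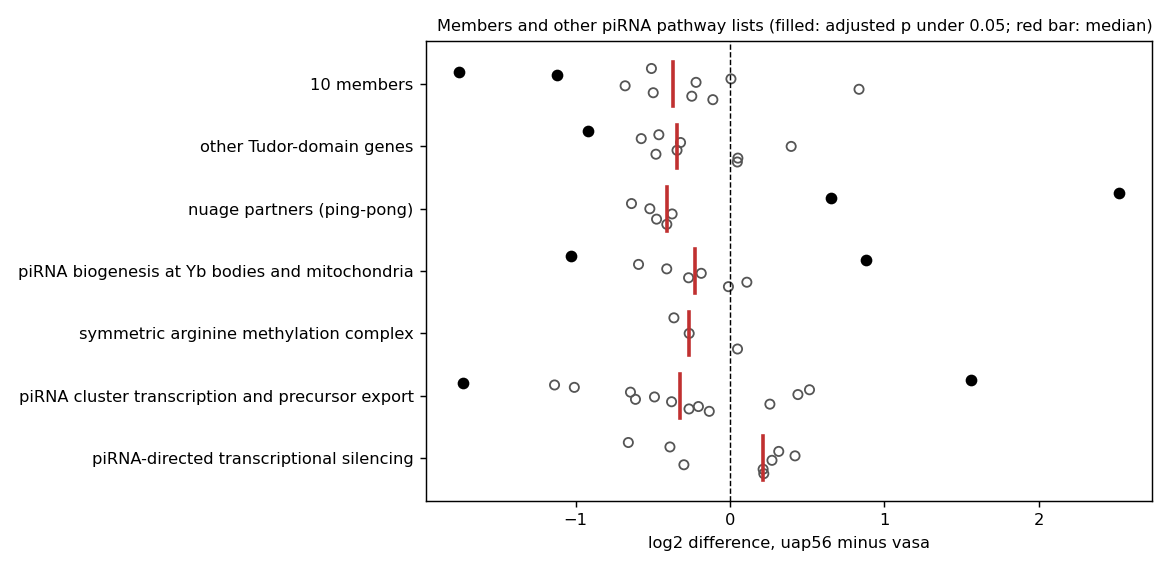
Log2 difference (x axis, uap56 minus vasa) of the 10 genes and of 6 other piRNA pathway lists (y axis), 1 point per gene, filled for an adjusted p under 0.05, with a red bar for the median. The medians run from -0.41 to 0.22, and filled points lie on both sides of 0.

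By the pattern over the 6 arrays, measured as the root mean square difference between log2 values centred on each gene's mean, the genes above the median intensity nearest to BoYb were Mct1 (0.21), Boot (0.26) and GstS1 (0.26). Mct1 (-1.61), Boot and GstS1 (-1.42) were each past the threshold toward vasa, and SoYb stood at rank 19 (0.36). The nearest to SoYb were Tob (0.08), mahe (0.11) and CG40006 (0.12), with krimp at rank 91 (0.26). The nearest to fs(1)Yb were CG11555 (0.04), pont (0.06) and AsnS (0.06), with SoYb at rank 3909 (0.43) and BoYb at rank 6421. The 6 points of such a pattern fall into 2 groups, so the nearest genes are largely those with a difference of like size, and the list is a description.

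The 10 genes are spread over 5 chromosome arms, with 3 each on 2R and 3R, 2 on 2L and 1 each on X and 3L, and no pair of them lies side by side. The label was made from double-stranded DNA, which does not keep the strand, so signal from an overlapping gene on either strand could add to a member's value. In the gene table of Release 6, BoYb, fs(1)Yb, tud, krimp, tej and papi overlap no other gene. SoYb overlaps CG31875 (-0.16, limma adjusted p = 0.813), vret overlaps CG6985 (0.28), spn-E overlaps Pbp45 (0.44) and qin spans 5 measured genes, whose differences lay between -0.49 (CG31224) and 0.37 (CG14301). Of the 8 overlapping genes measured, 0 passed in the limma fit or with the single prior and 0 had an unadjusted p under 0.05. Of the 20 measured genes next to a member, 0 passed in either fit and 6 had an unadjusted p under 0.05, where 18.2% of all genes had such a p. The 2 beside BoYb, CG11131 (87.7 ± 63.4 in uap56 and 19.7 ± 28.9 in vasa) and CG12768 (128 ± 22.5 and 114 ± 50.1), did not pass, and their means were higher in uap56, the direction opposite to BoYb. Beside SoYb, bib (146 ± 12.3 in uap56 and 241 ± 42.9 in vasa) differed in the direction of SoYb. Its log2 difference was -0.71 (limma unadjusted p = 0.0086, adjusted p = 0.109), and that of Ndf, on the other side, was -0.003.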

How the data were processed

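Total RNA from ovaries was measured on 6 arrays, 3 per group. Per the labels, the deposited intensity values had been summarised and normalized by the authors, in 1 table of RefSeq transcripts per array. Software, probe choice and genome build were not given in the sources used here. Transposon tables were not used. For arrays no depth applies, and the number of arrays limits the precision.

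Of 21158 entries, 393 were at 0 on every array and were left out, no value lay between 0 and 1, and log2 was taken without a pseudocount. Entries were named by accession (19234), by name (1313) or kept the file's name (611), through a gene table of Release 6 used for names, arms and gene order. After exact repeats were removed, 20677 entries gave 13691 genes, each represented by its entry with the highest mean. For qin the entry named CG14303 was used and CG14306 kept apart.

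Groups were compared in R 4.3.3 with the eBayes step of limma 3.58.1 (intensity trend, robust option, two-sided, Benjamini-Hochberg adjustment over all genes, threshold 0.05), and ratios with exact permutation tests in scipy 1.17.1. The members, the lists, the named genes and the choice of this fit over the single-prior fit were made with earlier results of these data known. Named were all members, for each list the genes past the threshold and otherwise up to 4 with the smallest p, and the 3 nearest patterns of each Yb gene. Genes next to or overlapping a member, CG14306, AGO3, aub and the members' ranks were named outside that rule. On simulated data of 13691 genes, log2 changes were placed in genes of the members' intensity range, 50 genes for each size. The reported fit found 8% of changes of 0.5, 76% of 1, 96% of 1.5 and 100% of 2. It made 14 false calls among the genes left unchanged, to be read beside the changed genes found. The single-prior fit found 0%, 0%, 32% and 70%, with 2 false calls. The simulated spread followed intensity, which favours the trend fit, and genes were drawn independently. It was also the same in both groups, whereas the members' median coefficient of variation was 21.0% in uap56 and 9.74% in vasa. The shares found may therefore not hold for the members. Between groups, arrays that share a replicate number did not deviate together (r = 4.37e-05, -0.00092 and -0.028), so replicate numbers were not treated as pairs. One list name, Spf30, was not measured. Alternatives were other variance priors, normalizations, pseudocount, filter, transcript choices, a replicate block, a stricter threshold and leaving out each array.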

Additional observations from a re-analysis of the deposited data

How the results depend on the processing

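The log2 differences of fs(1)Yb, krimp and qin kept their direction and stayed above the threshold p under all 16 alternatives, and the ratios between Yb genes kept their direction under all 9. With a single variance prior the calls of BoYb (-1.75) and SoYb (-1.12) were lost, leaving 0 members, and 1 gene passed toward each group. Without the robust option SoYb (-1.12) was lost, leaving 1 member toward vasa. With the replicate block SoYb (-1.12, adjusted p = 0.0653) was lost, leaving 1 member toward vasa, with 140 genes toward uap56 and 86 toward vasa against 340 and 185 in the reported fit, and no other member's call changed. tej came past the threshold, as the 1 member toward uap56, with quantile normalization (0.77), median centring (0.84), a pseudocount of 16 (0.79), genes above the 25th percentile (0.84), every entry tested (0.84) and germline centring (1.15). Toward vasa, 344 genes passed with quantile normalization. With every entry tested, 604 entries passed toward uap56 and 456 toward vasa. At an adjusted p of 0.01, 32 and 25 genes passed, with 0 members. Germline centring, added after the data were seen, gave 1023 and 78 genes and turned the signs of tud (0.10), spn-E (0.069) and papi (0.21). vret, near 0, turned to -0.068 with quantile normalization.

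Leaving out 1 array at a time gave 28 to 307 genes toward uap56, the lowest without uap56 replicate 2, with 124 when uap56 replicate 3 was left out, 59 for vasa replicate 2 and 58 for vasa replicate 3. Toward vasa it gave 29 to 202, the lowest when vasa replicate 2 was left out, with 32 for vasa replicate 3, 102 for vasa replicate 1, 42 for uap56 replicate 2 and 78 for uap56 replicate 3. Members past the threshold toward vasa were 0 to 2, with 0 without uap56 replicate 2 or any vasa replicate and 1 without uap56 replicate 3. BoYb ranged from -2.08 to -1.34, SoYb from -1.33 to -0.87, tej from 0.71 to 0.95, vret from -0.11 to 0.18 (below 0 without uap56 replicate 1, -0.11, uap56 replicate 2, -0.05, vasa replicate 2, -0.03, and vasa replicate 3, -0.04) and papi from -0.26 to 0.058, the latter without uap56 replicate 3. A fit with 5 arrays has fewer samples in 1 group, and apart from that the cause of a lost call was not tested.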
